A study of Mus musculus with 8 samples.

Results

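The genes of cholesterol and fatty acid synthesis, with their regulators and the genes of sterol transport, were read in 4 populations of CD4 single-positive thymocytes from mice. The set held 35 genes listed by pathway, with earlier results of these data known. Of these, 6 were of the mevalonate pathway, 11 of the branch that turns its product into cholesterol and 5 control the pathway. Another 7 were of fatty acid synthesis and 6 of sterol transport and the liver X receptors. The 35 stood among 21154 genes with a named probe, and all were among the 13498 genes bright enough to test. A gene was represented by its brightest probe, and its level is given as the log2 of the processed signal minus the 75th percentile of the array, so that 0 is the level of that percentile. Levels of different genes come from different probes and are not set against each other.

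Each population was measured on 2 one-colour arrays, from 2 biological replicates whose cells were lysed without culture. Nr4a-TKO preTreg were regulatory T cell precursors of the genotype labelled Nr4a-TKO, gated on high CD25, high GITR and high Nr4a3. Foxp3-KO preTreg were such precursors of the genotype labelled Foxp3-KO, gated on high CD25 and on the Foxp3 reporter. WT Treg were wild-type thymic regulatory T cells with Foxp3, and WT Tconv were wild-type conventional CD4 T cells with low CD25. All groups were CD4 single-positive thymocytes, and the labels used here give neither the age of the mice, nor the deleted parts of the genes, nor what drove the deletion. No wild-type precursor population was measured, so genotype and sort gate cannot be told apart when a precursor group is set against a wild-type group. All 8 arrays were on 1 slide, with Nr4a-TKO preTreg and WT Tconv in row 1 and Foxp3-KO preTreg and WT Treg in row 2, and between groups of different rows the row cannot be told apart from the group.

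Animal cells build cholesterol from acetyl-CoA by way of mevalonate, farnesyl diphosphate, squalene and lanosterol, and draw on the same acetyl-CoA for fatty acids. When membranes run short of sterol, the escort protein SCAP carries the SREBP transcription factors out of the endoplasmic reticulum to be cleaved, and the INSIG proteins hold the complex back when sterol is plentiful. Oxidised sterols in turn activate the liver X receptors, which raise sterol export. T cells are known to switch synthesis on when they are activated and divide.

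SREBP proteins act through promoters, so the promoter windows of the set were read from RefSeq on GRCm38.p6, from 250 bases before to 50 bases after each start, and 28 of the 35 genes had an entry. Each motif was sought on both strands. The sterol response element core TCACNCCAC was in the window of 1 of the 28 genes (3.57%), Hmgcs1, and in 1.44% of 27025 genes in the table. CCAAT, the box bound by NF-Y, was in 22 of the 28 (78.6%) and in 41.1% of all genes. GGGCGG, an Sp1 box, was also in 22 (78.6%), and in 38.2% of all genes. CACGTG, the palindromic E-box, was in 6 (21.4%) and in 8.09% of all genes, and AGGTCA, a nuclear receptor half-site, was in 5 (17.9%) and in 18.1%. A match describes letters in the window and is not a site of binding. No test was made of these shares.

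Windows are shown for the gene with the only TCACNCCAC match, for a pair of genes below WT Tconv in every other group (Mvd and Acss2), and for the feedback gene Insig1 and the exporter Abca1, which were above it. Capitals mark TCACNCCAC, CCAAT and CACGTG or their reverse complements, each written 5′ to 3′ on the strand of the gene. They lie at chr13:119690101-119690400 on the plus strand (Hmgcs1), chr8:122443373-122443672 on the minus strand (Mvd), chr2:155517793-155518092 on the plus strand (Acss2), chr5:28071162-28071461 on the plus strand (Insig1) and chr4:53159846-53160145 on the minus strand (Abca1).
Hmgcs1: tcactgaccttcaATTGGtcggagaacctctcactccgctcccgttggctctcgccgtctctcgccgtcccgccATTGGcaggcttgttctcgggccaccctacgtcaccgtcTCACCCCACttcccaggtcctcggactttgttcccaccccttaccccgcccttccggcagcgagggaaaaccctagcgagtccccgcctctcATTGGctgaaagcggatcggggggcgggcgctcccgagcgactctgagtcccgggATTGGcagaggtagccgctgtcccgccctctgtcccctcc
Mvd: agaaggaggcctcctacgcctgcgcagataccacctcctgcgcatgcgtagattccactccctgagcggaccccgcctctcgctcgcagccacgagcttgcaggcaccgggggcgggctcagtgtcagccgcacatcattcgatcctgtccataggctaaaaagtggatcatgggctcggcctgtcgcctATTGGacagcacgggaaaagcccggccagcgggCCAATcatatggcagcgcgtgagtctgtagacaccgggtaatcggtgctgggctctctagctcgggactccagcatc
Acss2: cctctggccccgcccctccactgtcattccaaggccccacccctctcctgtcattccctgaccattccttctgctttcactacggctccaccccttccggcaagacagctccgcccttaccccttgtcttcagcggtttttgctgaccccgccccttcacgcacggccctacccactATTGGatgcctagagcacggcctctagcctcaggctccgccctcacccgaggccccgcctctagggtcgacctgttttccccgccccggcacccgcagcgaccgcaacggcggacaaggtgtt
Insig1: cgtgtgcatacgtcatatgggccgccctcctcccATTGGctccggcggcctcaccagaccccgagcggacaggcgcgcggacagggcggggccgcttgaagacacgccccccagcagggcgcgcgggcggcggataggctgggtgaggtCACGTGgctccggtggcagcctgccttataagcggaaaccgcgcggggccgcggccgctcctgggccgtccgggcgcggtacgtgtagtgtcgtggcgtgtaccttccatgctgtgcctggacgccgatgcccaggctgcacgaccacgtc
Abca1: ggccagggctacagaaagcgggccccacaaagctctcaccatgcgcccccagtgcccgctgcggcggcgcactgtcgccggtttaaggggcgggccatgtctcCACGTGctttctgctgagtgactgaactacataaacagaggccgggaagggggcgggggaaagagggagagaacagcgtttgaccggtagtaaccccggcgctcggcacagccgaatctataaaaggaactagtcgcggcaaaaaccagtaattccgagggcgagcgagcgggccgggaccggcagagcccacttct
In Hmgcs1 the TCACNCCAC match starts 137 bases before the start site, with CCAAT boxes 237, 176 and 45 bases before it and 10 bases after it. Mvd has CCAAT boxes 60 and 27 bases before its start, and Acss2 has 1 such box 73 bases before. Insig1 has a CCAAT box 216 bases and a CACGTG 101 bases before its start, which an AGGTCA match overlaps. Abca1 has a CACGTG 147 bases before its start and no CCAAT in the window.

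The labelled cell types were checked on their markers. The summed signal of 4 genes of CD4 T cells (Cd3e, Cd4, Lck and Cd5), in multiples of the 75th percentile of the array, was 497 and 524 in Nr4a-TKO preTreg, 579 and 690 in Foxp3-KO preTreg, 606 and 619 in WT Treg, and 677 on both WT Tconv arrays, and all were above background everywhere. The 2 CD8 genes summed to 1.61 and 2.38, 1.89 and 2.93, 1.15 and 0.977, and 2.71 and 2.57 in the same order, and 6 stromal markers to between 0.199 and 0.583 on any array. The 6 regulatory T cell markers were each called higher than in WT Tconv in all 3 other populations. Foxp3 had a log2 level of 3.61 and 3.09 in Nr4a-TKO preTreg, 1.79 and 1.58 in Foxp3-KO preTreg, 4.84 and 4.56 in WT Treg, and -3.57 and -3.95 in WT Tconv. Nr4a2 was at 3.53 and 3.70 in Nr4a-TKO preTreg, 1.68 and 1.09 in Foxp3-KO preTreg, 1.44 and 1.63 in WT Treg, and -1.68 and -1.72 in WT Tconv. Nr4a1 was at 7.54 and 7.79, 6.99 and 7.44, 7.12 and 7.46, and 6.67 and 6.68 in the same order, and Nr4a3 was at -0.61 and -0.29, -1.06 and -0.50, -0.52 and 0.85, and -1.70 and -1.72. Foxp3 in Foxp3-KO preTreg was lower than in WT Treg (difference -3.02 ± 0.23 SE, adjusted p = 0.00703) but higher than in WT Tconv (5.44 ± 0.23, adjusted p = 0.000384). In Nr4a-TKO preTreg Nr4a2 was higher than in WT Treg (2.08 ± 0.20, adjusted p = 0.002), and the other Nr4a genes were not called different from it. Since the deleted parts are not given, these probes check no genotype. Across tested genes the replicates correlated at r = 0.976 to 0.997, and they spread most in Foxp3-KO preTreg (root mean square SD 0.472) and least in WT Tconv (0.183).

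Of the 35 genes, 34 were well above background on all 8 arrays. The exception was Scd1, which was above it on both Nr4a-TKO preTreg arrays and on Foxp3-KO preTreg array 1. The group means of 27 of the 35 lay within 1 log2 unit, and the median of that range was 0.50, against 0.60 over all tested genes. The set did not move as a block in any comparison: its median log2 difference lay between -0.02 and 0.04, with genes called in both directions wherever any were called. A call is an adjusted p under 0.05 in limma, with Benjamini-Hochberg adjustment over all tested genes of a comparison.

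Against WT Tconv, 17 of the 35 genes were called in Nr4a-TKO preTreg (9 higher and 8 lower), where 48.7% of all tested genes were called (21.1% higher and 27.6% lower). In Foxp3-KO preTreg 7 were called (2 higher and 5 lower), where 25.1% of all tested genes were (10.3% higher and 14.8% lower). In WT Treg 11 were called (4 higher and 7 lower), where 34.7% of all tested genes were (13.8% higher and 20.9% lower). Their median difference was -0.01, 0.02 and -0.02 in these 3 comparisons in that order, and that of all tested genes was -0.11, -0.11 and -0.08. Against WT Treg, Nr4a-TKO preTreg had 10 called (4 higher and 6 lower) against 35% of all tested genes (18.5% higher and 16.4% lower). Foxp3-KO preTreg had 0 against 6.45% (3.33% higher and 3.12% lower), and the smallest adjusted limma p of the 35 was 0.0515. Between the precursors, Nr4a-TKO preTreg over Foxp3-KO preTreg, 10 were called (4 higher and 6 lower) against 33.4% (17.8% higher and 15.6% lower). Calls of at least 2-fold numbered 8, 1 and 2 of the 35 in Nr4a-TKO preTreg, Foxp3-KO preTreg and WT Treg against WT Tconv, where 19.6%, 8.08% and 12.1% of all tested genes had one. They numbered 1 and 0 in Nr4a-TKO preTreg and Foxp3-KO preTreg against WT Treg (13.1% and 2.81% of all tested genes), and 0 between the precursors (12%). A total of 55 calls fell on 23 genes, and 12 genes were never called. The share of all tested genes called in any of the comparisons was not counted, so these numbers are not read as a result about the set. The comparisons with WT Tconv share its 2 arrays, so their calls are not independent of each other.

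**Figure D1:**
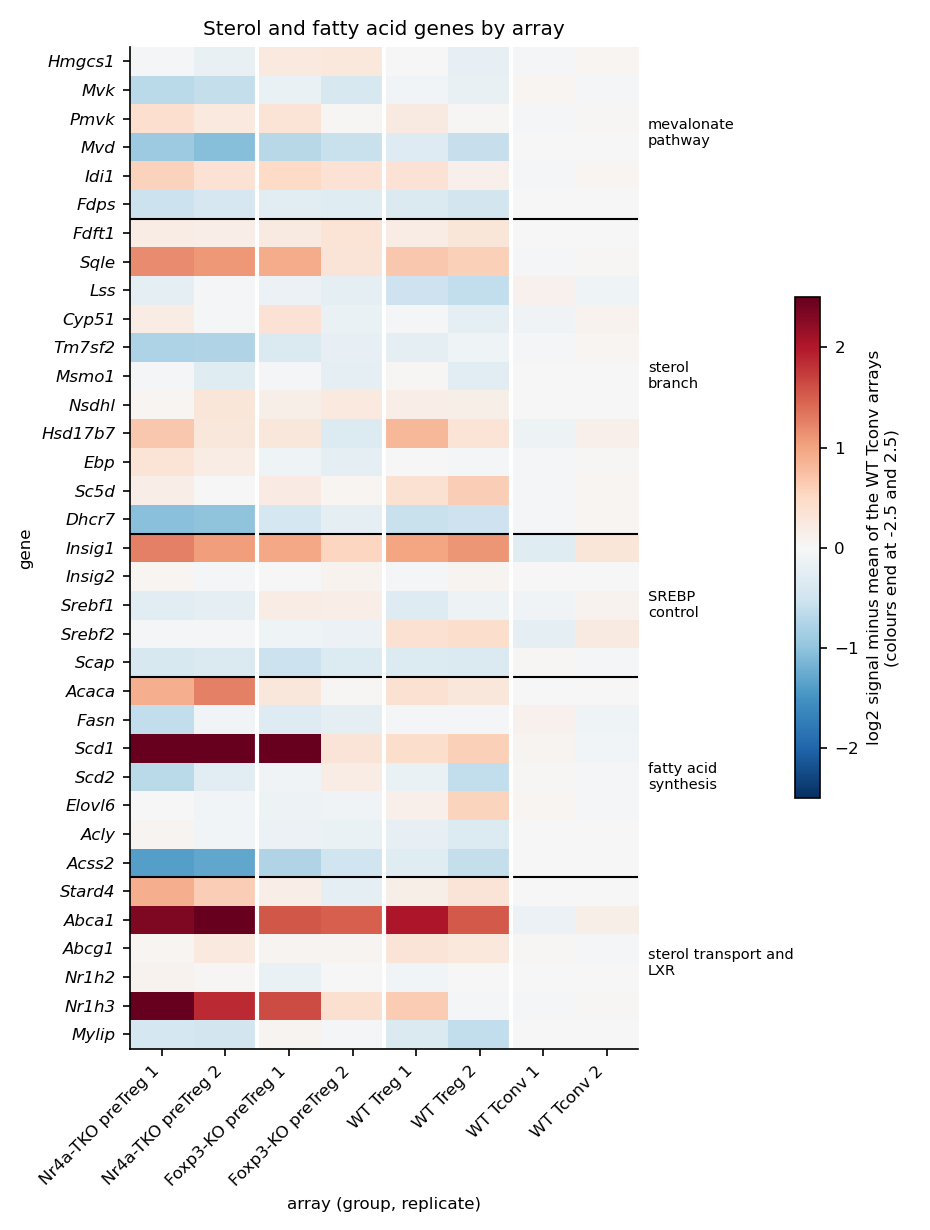
Log2 signal of the 35 genes on each of the 8 arrays, minus the mean of the 2 WT Tconv arrays, with genes in rows by role and arrays in columns by population; the colour scale stops at a fixed limit that Scd1 exceeds. Abca1 was above WT Tconv on all 6 other arrays, and Scd1 and Nr1h3 differed widely between replicates of the precursor groups.

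The widest difference with probes above background everywhere was that of Abca1, the membrane exporter of cholesterol to lipoprotein. Its log2 level was 2.03 and 2.35 in Nr4a-TKO preTreg, 1.25 and 1.19 in Foxp3-KO preTreg, 1.71 and 1.24 in WT Treg, and -0.44 and -0.17 in WT Tconv. All 6 arrays of the CD25-high or Foxp3-positive populations lay above both WT Tconv arrays. The level was 5.63-fold higher than in WT Tconv in Nr4a-TKO preTreg (log2 difference 2.49 ± 0.20 SE, adjusted p = 0.000901), 2.88-fold higher in Foxp3-KO preTreg (1.52 ± 0.20, adjusted p = 0.00832) and 3.43-fold higher in WT Treg (1.78 ± 0.20, adjusted p = 0.00278). Nr4a-TKO preTreg also stood above WT Treg by 0.71 ± 0.20 (adjusted p = 0.0411) and above Foxp3-KO preTreg by 0.97 ± 0.20 (adjusted p = 0.0183). The calls of Nr4a-TKO preTreg and WT Treg over WT Tconv held without each array in turn. That of Foxp3-KO preTreg was lost without WT Tconv array 1 (adjusted p up to 0.0633), and that of Nr4a-TKO preTreg over WT Treg was lost on leaving out any array except WT Treg array 1 (up to 0.174) and with the replicate number as a block.

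Abcg1, a partner exporter, was called only in WT Treg, at 5.06 ± 0.04 (SD, n = 2) against 4.76 ± 0.05 in WT Tconv (difference 0.30 ± 0.09 SE, adjusted p = 0.0452). Its levels in Nr4a-TKO preTreg and Foxp3-KO preTreg, 4.90 ± 0.13 and 4.83 on both arrays, were not called different from any group. The WT Treg call was lost under median scaling, without the filter on dim probes, with the replicate number as a block and in 6 of 9 removals of arrays.

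Nr1h3, which encodes liver X receptor alpha, had log2 levels of 1.42 and 0.43 in Nr4a-TKO preTreg, 0.18 and -1.04 in Foxp3-KO preTreg, -0.82 and -1.50 in WT Treg, and -1.48 and -1.41 in WT Tconv. Both Nr4a-TKO preTreg arrays were above all others, but the replicates of each precursor group lay about 1 log2 unit apart. Nr4a-TKO preTreg was higher than WT Tconv by 2.37 ± 0.52 (5.16-fold, adjusted p = 0.0148) and higher than WT Treg by 2.08 ± 0.52 (adjusted p = 0.0296). The first call was lost without either WT Tconv array or without Nr4a-TKO preTreg array 1, with an adjusted p of up to 0.0736, and the second without any array of WT Treg or WT Tconv or without Nr4a-TKO preTreg array 1 (up to 0.133). Its partner Nr1h2, liver X receptor beta, had group means of 4.17 ± 0.05, 4.03 ± 0.10, 4.07 ± 0.04 and 4.11 ± 0.02 in Nr4a-TKO preTreg, Foxp3-KO preTreg, WT Treg and WT Tconv (SD, n = 2 each), and no comparison called it.

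Nr1h3 and Abca1 are also expressed in macrophages, and markers of other cells differed between the populations. The summed signal of 16 myeloid markers, in multiples of the 75th percentile of the array, was 345 and 237 in Nr4a-TKO preTreg, 242 and 169 in Foxp3-KO preTreg, 183 and 133 in WT Treg, and 73.2 and 75.3 in WT Tconv. Such a sum weighs bright genes most and does not give the size of the difference of a typical marker. The median log2 level of the 16 was 2.60 and 1.59, 1.75 and -0.93, 0.65 and -1.14, and -2.89 and -3.09 in the same order. Of the 16 markers, 13 were called higher and 1 lower in Nr4a-TKO preTreg than in WT Tconv, 9 higher and 0 lower in Foxp3-KO preTreg, and 9 higher and 0 lower in WT Treg. In WT Tconv 6 of the 16 (Adgre1, Cd14, C1qa, C1qc, Fcgr1 and Mertk) were not well above background, and in WT Treg 1 was (Cd14). The sum of 6 B cell markers was 53.0 and 13.3 in Nr4a-TKO preTreg, 15.8 and 3.33 in Foxp3-KO preTreg, 4.16 and 2.94 in WT Treg, and 1.16 and 1.07 in WT Tconv. Of 5 tested, 5 were called higher in Nr4a-TKO preTreg than in WT Tconv, where Cd79a and Ebf1 entered the test only through Nr4a-TKO preTreg. In Foxp3-KO preTreg and in WT Treg 0 were called against WT Tconv in either direction. Of the B cell markers, Pax5 was not above background in Foxp3-KO preTreg, Cd79a, Pax5 and Ebf1 were not in WT Treg, and Cd79a, Ms4a1, Pax5 and Ebf1 were not in WT Tconv. Within each precursor group the array with more myeloid and B cell signal was the one with more Nr1h3. In WT Treg, too, array 1 had the higher marker sums and more Nr1h3 (-0.82 against -1.50). Abca1 kept that order in WT Treg (1.71 and 1.24) and in Foxp3-KO preTreg (1.25 and 1.19). In Nr4a-TKO preTreg the array with the lower marker sums had the higher Abca1 level. The part of these markers in the Nr1h3 and Abca1 differences was not tested. In such bulk samples fewer cells of a type and less RNA per cell cannot be told apart.

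**Figure D2:**
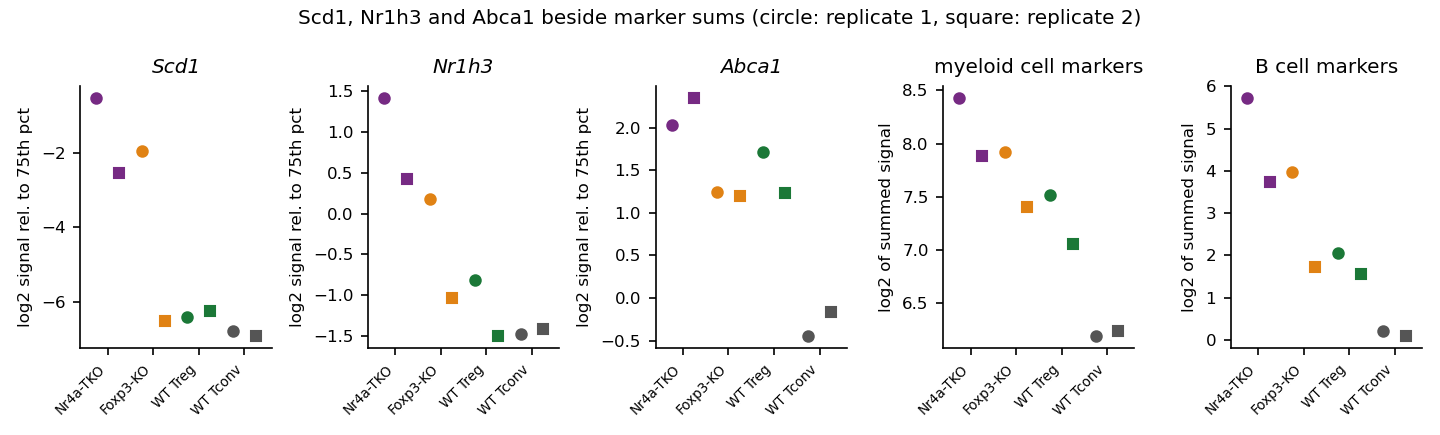
Log2 levels of Scd1, Nr1h3 and Abca1, relative to the 75th percentile of the array, and log2 of the summed signal of the myeloid and B cell markers, each by population. Circles are replicate 1 and squares replicate 2, and Scd1, Nr1h3 and both marker sums were highest on Nr4a-TKO preTreg array 1, whereas Abca1 was highest on array 2.

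The remaining transport genes moved in smaller steps. Stard4, a soluble carrier of sterol between membranes, averaged 0.86 ± 0.20 in Nr4a-TKO preTreg and 0.05 ± 0.30 in Foxp3-KO preTreg (SD, n = 2 each), against 0.09 on both WT Tconv arrays. It was called higher in Nr4a-TKO preTreg than in WT Tconv (0.77 ± 0.17 SE, adjusted p = 0.0168) and than in Foxp3-KO preTreg (0.81 ± 0.17, adjusted p = 0.0209). Its second probe gave 0.33 and 0.63, and 3 of 9 removals of arrays ended the call against WT Tconv. Mylip, a ubiquitin ligase that liver X receptors induce and that removes lipoprotein receptors from the cell surface, went the other way. It was lower in Nr4a-TKO preTreg (2.42 and 2.40) and WT Treg (2.49 and 2.23) than in WT Tconv (2.85 on both arrays), by 0.44 ± 0.10 (adjusted p = 0.0186) and 0.49 ± 0.10 (adjusted p = 0.0188). Foxp3-KO preTreg, at 2.92 and 2.82, was not called different from WT Tconv, and Nr4a-TKO preTreg was lower than it (difference -0.46 ± 0.10, adjusted p = 0.0238).

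**Figure D3:**
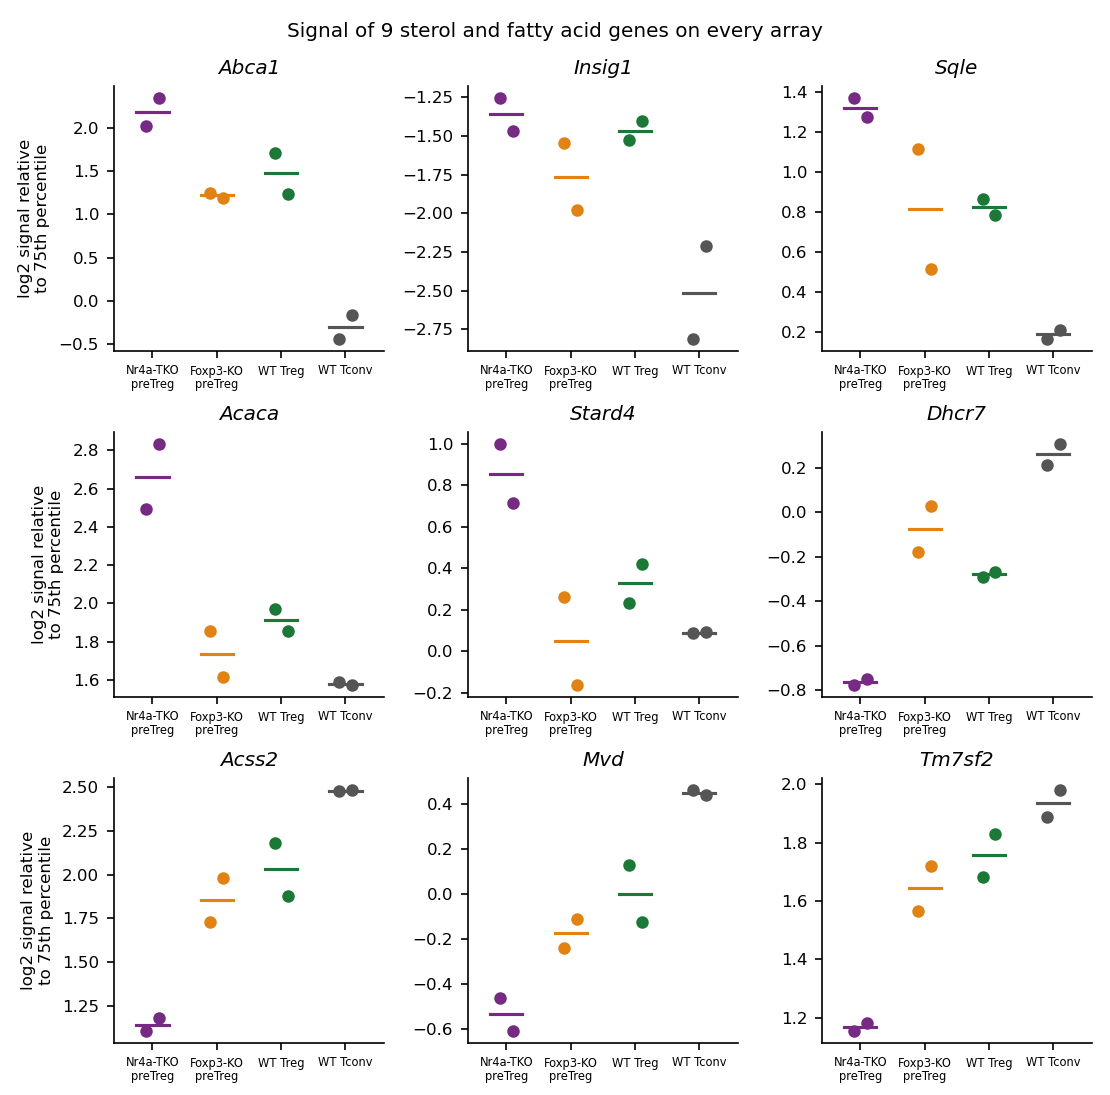
Log2 levels of 9 genes of the set by population, with a point for each array and a line at the group mean. Abca1, Insig1, Sqle and Acaca were lowest on the WT Tconv arrays, and Dhcr7, Acss2, Mvd and Tm7sf2 were lowest on the Nr4a-TKO preTreg arrays.

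Of the 5 regulators, Insig1 had the widest differences by the probes used. Insig1, the feedback gene that SREBP proteins themselves induce, had log2 levels of -1.25 and -1.46 in Nr4a-TKO preTreg, -1.55 and -1.98 in Foxp3-KO preTreg, -1.52 and -1.40 in WT Treg, and -2.81 and -2.21 in WT Tconv. Every array of the other 3 populations was above both WT Tconv arrays. It was 2.23-fold higher than in WT Tconv in Nr4a-TKO preTreg (1.15 ± 0.24 SE, adjusted p = 0.0128) and 2.07-fold higher in WT Treg (1.05 ± 0.24, adjusted p = 0.0232). In Foxp3-KO preTreg the difference of 0.75 ± 0.24 missed the threshold (adjusted p = 0.0717). Without WT Tconv array 1 both calls were lost, as they were without Nr4a-TKO preTreg array 1 for that group and without either WT Treg array for the other (adjusted p up to 0.0688 and 0.1). Insig2, which does the same job without that induction, was called in no comparison, with 1.51 and 1.41 in Nr4a-TKO preTreg, 1.47 and 1.56 in Foxp3-KO preTreg, 1.41 and 1.53 in WT Treg, and 1.48 and 1.45 in WT Tconv.

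Scap, the escort of SREBP, was lower than in WT Tconv in all 3 other populations, at 3.44 and 3.48 in Nr4a-TKO preTreg, 3.32 and 3.50 in Foxp3-KO preTreg and 3.50 and 3.48 in WT Treg, against 3.88 and 3.81 in WT Tconv. The differences were -0.39 ± 0.09 (adjusted p = 0.0157), -0.44 ± 0.09 (adjusted p = 0.0215) and -0.36 ± 0.09 (adjusted p = 0.0266) in that order. Each call was lost without either WT Tconv array (adjusted p up to 0.0966, 0.133 and 0.147), and some were lost without Nr4a-TKO preTreg array 1, either WT Treg array, or the 2 precursor arrays left out together. Srebf2, the SREBP gene tied mainly to cholesterol synthesis, was at -0.82 and -0.83 in Nr4a-TKO preTreg, -0.89 and -0.93 in Foxp3-KO preTreg, -0.40 and -0.33 in WT Treg, and -1.0 and -0.55 in WT Tconv. No comparison called it, and its 2 probes, both above background on all arrays, did not agree. The differences from WT Tconv were -0.05, -0.13 and 0.41 with the probe used, and 0.62, 0.74 and 0.51 with the other, in Nr4a-TKO preTreg, Foxp3-KO preTreg and WT Treg, so no direction is given. Srebf1, tied mainly to fatty acid synthesis and a target of the liver X receptors, was at -1.29 and -1.24 in Nr4a-TKO preTreg, -0.83 and -0.86 in Foxp3-KO preTreg, -1.34 and -1.14 in WT Treg, and -1.10 and -0.93 in WT Tconv. Its 1 call was lower in Nr4a-TKO preTreg than in Foxp3-KO preTreg, by 0.42 ± 0.10 (adjusted p = 0.0284). The call was lost under median scaling, normexp background correction and the fit of those 2 groups alone, and it was kept in only 2 of 9 removals of arrays. Nr4a-TKO preTreg had the highest group mean of Nr1h3 and Abca1, and Foxp3-KO preTreg that of Srebf1. Any part of the liver X receptors in the Srebf1 levels was not tested.

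The 6 genes of the mevalonate pathway did not all move the same way. Mvd, the decarboxylase that makes isopentenyl diphosphate, and Fdps, which joins such units to farnesyl diphosphate, were lower than in WT Tconv in all 3 other populations. Mvd averaged -0.53 ± 0.10 in Nr4a-TKO preTreg, -0.18 ± 0.09 in Foxp3-KO preTreg and 0.00 ± 0.18 in WT Treg, against 0.45 ± 0.02 in WT Tconv (SD, n = 2 each). Its differences from WT Tconv were -0.98 ± 0.11 (adjusted p = 0.0023), -0.62 ± 0.11 (adjusted p = 0.0178) and -0.45 ± 0.11 (adjusted p = 0.0315) in that order, and it was also lower in Nr4a-TKO preTreg than in WT Treg (difference -0.54 ± 0.11, adjusted p = 0.0192). Fdps averaged 2.46 ± 0.07, 2.65 ± 0.02 and 2.54 ± 0.07 in those populations, against 2.94 ± 0.01 in WT Tconv, with differences of -0.48 (adjusted p = 0.00543), -0.30 (adjusted p = 0.0404) and -0.41 (adjusted p = 0.012), each ± 0.07 SE. The Nr4a-TKO preTreg calls of both genes held without each array in turn. Those of Foxp3-KO preTreg did not: for Mvd the call was lost without either WT Tconv array or Foxp3-KO preTreg array 1 (adjusted p up to 0.108), and for Fdps without any 1 array (up to 0.189).

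Mvk, mevalonate kinase, was lower in Nr4a-TKO preTreg, where it averaged 1.90 ± 0.07, against 2.40 ± 0.08 in WT Treg and 2.53 ± 0.06 in WT Tconv. It stood -0.64 ± 0.11 from WT Tconv (adjusted p = 0.00709) and -0.50 ± 0.11 from WT Treg (adjusted p = 0.0203), while Foxp3-KO preTreg lay between at 2.25 ± 0.17. Its second probe gave differences of -0.76 and -0.58 for the same comparisons. Idi1, the isomerase of isopentenyl diphosphate, was higher in Nr4a-TKO preTreg at 0.80 ± 0.16, against 0.33 ± 0.07 in WT Tconv (0.47 ± 0.12 SE, adjusted p = 0.0256). That call did not hold under median scaling, without the filter on dim probes, or without either WT Tconv array or Nr4a-TKO preTreg array 1. Hmgcs1, the synthase of the first committed intermediate and the gene with the TCACNCCAC match, was called once, lower in Nr4a-TKO preTreg (2.28 ± 0.11) than in Foxp3-KO preTreg (2.65 ± 0.02; difference -0.38 ± 0.10 SE, adjusted p = 0.0418), and 7 of 9 removals of arrays ended the call. Pmvk, the kinase after Mvk, was called in no comparison.

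In the branch from farnesyl diphosphate to cholesterol, the first oxidation and the last reduction moved oppositely in Nr4a-TKO preTreg. Sqle, squalene epoxidase, had log2 levels of 1.37 and 1.27 in Nr4a-TKO preTreg, 1.11 and 0.52 in Foxp3-KO preTreg, 0.86 and 0.79 in WT Treg, and 0.17 and 0.21 in WT Tconv. All 6 other arrays lay above WT Tconv, and the 2 Foxp3-KO preTreg arrays lay far apart. The Nr4a-TKO preTreg difference was 2.19-fold (1.13 ± 0.19 SE, adjusted p = 0.00693), while those of Foxp3-KO preTreg and WT Treg, 0.62 and 0.63, missed the threshold at adjusted p = 0.0653 and 0.052. Dhcr7, the reductase that yields cholesterol, had log2 levels of -0.78 and -0.75 in Nr4a-TKO preTreg, -0.18 and 0.03 in Foxp3-KO preTreg, -0.29 and -0.27 in WT Treg, and 0.21 and 0.31 in WT Tconv. Each other population lay below WT Tconv without overlap. Nr4a-TKO preTreg was 2.03-fold lower than WT Tconv (-1.02 ± 0.09, adjusted p = 0.00115), WT Treg differed by -0.54 ± 0.09 (adjusted p = 0.00942) and Foxp3-KO preTreg by -0.34 ± 0.09 (adjusted p = 0.0481). Nr4a-TKO preTreg was lower than Foxp3-KO preTreg by 0.69 ± 0.09 (adjusted p = 0.00573) and lower than WT Treg by 0.48 ± 0.09 (adjusted p = 0.0136). The Nr4a-TKO preTreg calls of Sqle and Dhcr7 against WT Tconv held without each array in turn, while the WT Treg call of Dhcr7 was lost without either WT Tconv array or WT Treg array 1 (adjusted p up to 0.0714). The Foxp3-KO preTreg call of Dhcr7 was lost under 5 of 10 other settings and in 8 of 9 removals (up to 0.224).

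Tm7sf2, a sterol reductase, was lowest in Nr4a-TKO preTreg at 1.17 ± 0.02 (SD, n = 2), against 1.64 ± 0.11 in Foxp3-KO preTreg, 1.76 ± 0.10 in WT Treg and 1.93 ± 0.07 in WT Tconv. Nr4a-TKO preTreg differed by -0.77 ± 0.09 SE from WT Tconv (adjusted p = 0.00261), by -0.59 ± 0.09 from WT Treg (adjusted p = 0.00822) and by -0.48 ± 0.09 from Foxp3-KO preTreg (adjusted p = 0.0161). Its second probe gave -0.73, -0.61 and -0.58. Ebp, the sterol isomerase, was higher in Nr4a-TKO preTreg at 5.17 ± 0.10 than in Foxp3-KO preTreg at 4.73 ± 0.10 (0.44 ± 0.09 SE, adjusted p = 0.0159) and than in WT Tconv at 4.90 ± 0.03 (0.27 ± 0.09, adjusted p = 0.0487), and the call against WT Tconv was lost under 5 of 10 other settings and in 6 of 9 removals. Lss, lanosterol synthase, and Sc5d, a sterol desaturase, were called in WT Treg against WT Tconv and in Nr4a-TKO preTreg against WT Treg. Lss averaged -2.12 ± 0.06 in WT Treg and -1.55 ± 0.16 in WT Tconv (difference -0.57 ± 0.12, adjusted p = 0.0173), and Nr4a-TKO preTreg stood above WT Treg (0.42 ± 0.12, adjusted p = 0.0415). Sc5d averaged 2.20 ± 0.17 in WT Treg and 1.70 ± 0.07 in WT Tconv (0.50 ± 0.12, adjusted p = 0.0265), and Nr4a-TKO preTreg stood below WT Treg (-0.42 ± 0.12, adjusted p = 0.0437). For both genes the call between Nr4a-TKO preTreg and WT Treg was lost under 5 of 10 other settings, the replicate block among them, and in 7 of 9 removals, and Foxp3-KO preTreg was not called different from WT Treg (adjusted p = 0.133 each). Fdft1, squalene synthase, was called only higher in Foxp3-KO preTreg at 0.65 ± 0.08, against 0.36 ± 0.02 in WT Tconv (0.29 ± 0.08 SE, adjusted p = 0.0485), and each removal of an array ended that call. Cyp51, Msmo1, Nsdhl and Hsd17b7, which strip and reduce the methylated sterols, were called in no comparison, although Hsd17b7 differed by up to -0.62, in Foxp3-KO preTreg against WT Treg.

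**Figure D4:**
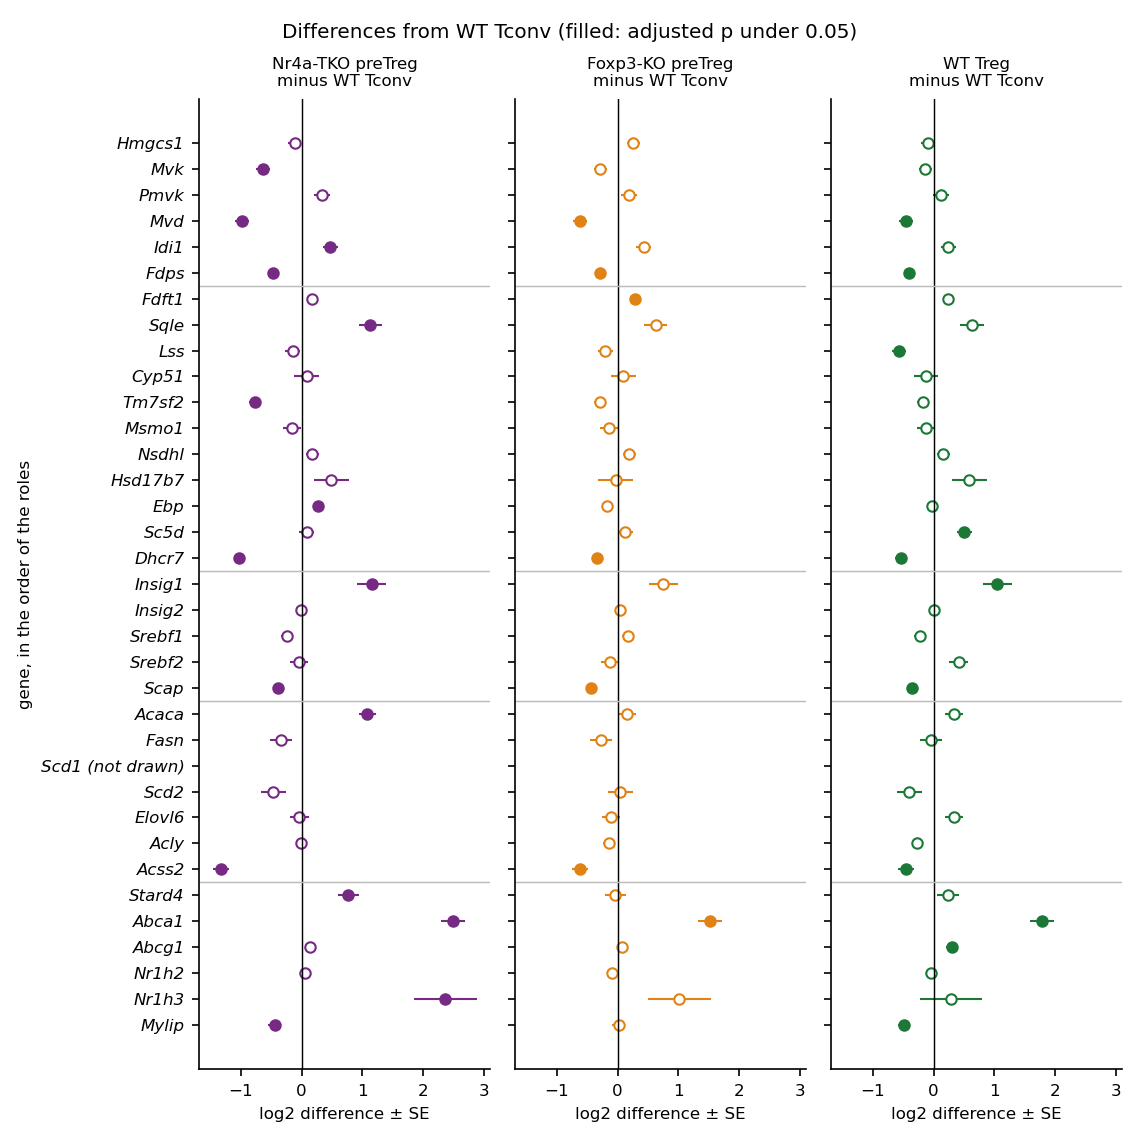
Log2 difference of each gene from WT Tconv in Nr4a-TKO preTreg, Foxp3-KO preTreg and WT Treg, with bars of 1 SE and filled points for an adjusted p under 0.05. Scd1 is left out because it was not above background in WT Tconv, and Mvd, Fdps, Dhcr7, Scap and Acss2 lie below 0 with filled points in all 3 panels.

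In fatty acid synthesis Acaca and Acss2 shifted in opposite directions in Nr4a-TKO preTreg. Acaca, acetyl-CoA carboxylase, which makes malonyl-CoA for fatty acid synthesis, had log2 levels of 2.49 and 2.83 in Nr4a-TKO preTreg, 1.86 and 1.61 in Foxp3-KO preTreg, 1.97 and 1.86 in WT Treg, and 1.59 and 1.57 in WT Tconv. Both Nr4a-TKO preTreg arrays lay above all 6 others. The differences of Nr4a-TKO preTreg were 1.08 ± 0.14 SE from WT Tconv (2.12-fold, adjusted p = 0.00327), 0.93 ± 0.14 from Foxp3-KO preTreg (adjusted p = 0.00858) and 0.75 ± 0.14 from WT Treg (adjusted p = 0.0142). Another probe of Acaca above background on all arrays gave 1.92, 1.21 and 0.88 for the same comparisons, the largest gap between the probes being that with WT Tconv. That probe also stood above WT Tconv by 0.70 in Foxp3-KO preTreg and 1.04 in WT Treg, against 0.16 and 0.33 for the probe used. Acss2, which makes acetyl-CoA from acetate, ran the other way, with 1.11 and 1.18 in Nr4a-TKO preTreg, 1.73 and 1.98 in Foxp3-KO preTreg, 2.18 and 1.88 in WT Treg, and 2.47 and 2.48 in WT Tconv. It was 2.52-fold lower in Nr4a-TKO preTreg than in WT Tconv (-1.33 ± 0.13, adjusted p = 0.00152), and it differed by -0.62 ± 0.13 in Foxp3-KO preTreg (adjusted p = 0.0268) and by -0.45 ± 0.13 in WT Treg (adjusted p = 0.0496). Nr4a-TKO preTreg was also lower than WT Treg by 0.88 ± 0.13 (adjusted p = 0.00731) and lower than Foxp3-KO preTreg by 0.71 ± 0.13 (adjusted p = 0.0145), and its second probe gave -1.0 and -0.99. Acss2 against WT Tconv and Acaca against WT Tconv were called without each array in turn in Nr4a-TKO preTreg, whereas the WT Treg call of Acss2 was lost under 5 of 10 other settings.

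Scd1, a desaturase that makes monounsaturated fatty acids and another liver X receptor target, was at -0.53 and -2.55 in Nr4a-TKO preTreg, -1.95 and -6.51 in Foxp3-KO preTreg, -6.41 and -6.25 in WT Treg, and -6.78 and -6.90 in WT Tconv. The probe was not well above background on either array of WT Treg or WT Tconv, nor on Foxp3-KO preTreg array 2. Against the background level, the mean of Nr4a-TKO preTreg was at least 7.94-fold higher than WT Tconv and at least 6.02-fold higher than WT Treg. The limma fit used the values below background as measured. It gave differences of 5.30 ± 1.49 SE from WT Tconv (adjusted p = 0.0322) and 4.79 ± 1.49 from WT Treg (adjusted p = 0.0552). These p do not refer to the bounds. Scd1 entered the test only through Nr4a-TKO preTreg, where it was bright, so its p is not independent of that selection. That call was lost without the filter on dim probes and on leaving out any single array of Nr4a-TKO preTreg, WT Treg or WT Tconv (adjusted p up to 0.145). Its signal followed the myeloid and B cell sums across the precursor arrays, and their part in it was not tested. The other desaturase Scd2, the synthase Fasn, the elongase Elovl6 and Acly, which splits citrate to acetyl-CoA, were called in no comparison, with group means of Fasn at -1.60 ± 0.38, -1.53 ± 0.05, -1.29 ± 0.02 and -1.25 ± 0.15 in Nr4a-TKO preTreg, Foxp3-KO preTreg, WT Treg and WT Tconv (SD, n = 2 each). Over the 12 genes of the set never called, differences ran from -0.62 to 0.59 and the smallest adjusted p was 0.0588.

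In the 20 calls where a further probe of the gene could be read, 20 had the same sign. Leaving out each array in turn, and once 2 precursor arrays together, kept 13 of the 55 calls in every case. These were Abca1, Acaca, Acss2, Dhcr7, Fdps, Mvd, Sqle and Tm7sf2 in Nr4a-TKO preTreg against WT Tconv, Abca1 in WT Treg against WT Tconv, Acss2 and Tm7sf2 in Nr4a-TKO preTreg against WT Treg, and Acaca and Dhcr7 in Nr4a-TKO preTreg against Foxp3-KO preTreg. The other 42 were lost in at least 1 removal. Leaving out Nr4a-TKO preTreg array 1 or 2 ended 26 or 18 calls, Foxp3-KO preTreg array 1 or 2 ended 10 or 8, WT Treg array 1 or 2 ended 17 or 21, and WT Tconv array 1 or 2 ended 33 or 28, with adjusted p between 0.05 and 0.224 in those fits.

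Other genes of lipid metabolism, 47 with a probe, were also called in both directions. Of 20 tested genes of synthesis, 3 were higher and 5 lower than in WT Tconv in Nr4a-TKO preTreg, 1 and 3 in Foxp3-KO preTreg, and 3 and 5 in WT Treg, where 48.7%, 25.1% and 34.7% of all tested genes were called. Of 23 tested genes of uptake, handling and regulation, 6 were higher and 7 lower in Nr4a-TKO preTreg, 1 and 4 in Foxp3-KO preTreg, and 1 and 5 in WT Treg. Acacb is the carboxylase isoform of the mitochondrial surface whose malonyl-CoA restrains fatty acid oxidation. Its log2 level was -2.58 and -2.42 in Nr4a-TKO preTreg, -2.52 and -2.66 in Foxp3-KO preTreg and -2.54 and -2.46 in WT Treg, against 0.12 and -0.12 in WT Tconv. The differences were -2.50 (adjusted p = 0.000211), -2.59 (adjusted p = 0.000399) and -2.50 (adjusted p = 0.000256), each ± 0.11 SE.

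Mlxipl, a glucose-responsive transcription factor of lipid synthesis, was also lower than in WT Tconv in all 3, by 0.71 (adjusted p = 0.00172), 0.70 (adjusted p = 0.00439) and 0.58 (adjusted p = 0.00395) in Nr4a-TKO preTreg, Foxp3-KO preTreg and WT Treg. Nr4a-TKO preTreg stood above both Foxp3-KO preTreg and WT Treg for the elongase Elovl1 (0.86, adjusted p = 0.00744, and 0.68, adjusted p = 0.013) and for the lipoprotein receptor Scarb1 (1.13, adjusted p = 0.0118, and 1.34, adjusted p = 0.00685). Tmem97, a sterol-responsive membrane protein, was higher in Nr4a-TKO preTreg than in WT Treg by 0.82 (adjusted p = 0.0042). Lpin1, a phosphatidate phosphatase, was lower in Nr4a-TKO preTreg, by 1.38 against WT Tconv (adjusted p = 0.00429) and by 1.19 against Foxp3-KO preTreg (adjusted p = 0.0106). Between Foxp3-KO preTreg and WT Treg, 1 gene of these lists was called, the sterol reductase and lamin receptor Lbr (0.38 ± 0.07 SE, adjusted p = 0.0419).

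Sterol synthesis is often linked with division. The median log2 level of 12 proliferation markers was 2.05 and 2.20 in Nr4a-TKO preTreg, 1.77 and 2.14 in Foxp3-KO preTreg, 0.84 and 0.73 in WT Treg, and 2.25 and 2.3 in WT Tconv, with Aurkb not above background in any group. Of 11 tested, 3 were higher in Nr4a-TKO preTreg than in WT Tconv, 4 were lower in Foxp3-KO preTreg, and 11 were lower in WT Treg. Against WT Treg, 11 were higher in Nr4a-TKO preTreg and 10 in Foxp3-KO preTreg. Of the 35 genes, 10 were called in the first of these comparisons and 0 in the second, where 35% and 6.45% of all tested genes were called. The part of division in any difference was not tested.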

How the data were processed

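RNA of sorted CD4 single-positive thymocytes was measured on 8 one-colour Agilent arrays, 2 biological replicates in each of 4 groups. Per the labels, Cy3 cRNA was made from 10 ng of RNA. Per the file headers, the deposited values are the processed intensity of each spot from Agilent Feature Extraction 10.7.1.1, background-subtracted and not normalized between arrays. A second deposited table, of linear intensity, had a 75th percentile on each array of 1.003 to 1.006. It served as an alternative. Of 62976 spots per array, 3671 controls and those flagged as outliers were left out, and 0 were saturated. Between 47.7% and 52.1% of probes were well above background, and the 75th percentile was 8.9 to 10.42 times the local background. With 2 arrays in each group, precision is low.

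Intensities were divided by the 75th percentile of their array and put on the log2 scale. Probes were named through their RefSeq accession, which gave 28026 probes a symbol and left 27655 without. A gene was tested if its brightest probe was well above background on both arrays of at least 1 group. One limma fit held all groups (version 3.58.1, R 4.3.3, with lmFit, eBayes without trend and 4 residual and 1.6 prior degrees of freedom), with Benjamini-Hochberg adjustment over 13498 genes in each of the 6 comparisons and a threshold of 0.05. For a group below background on both arrays a fold is a lower bound against the lowest signal well above background. The procedure was also run on simulated data. There each gene had the same spread in all groups and few genes were changed, unlike here, so that run does not vouch for these calls. Promoter windows came from RefSeq on GRCm38.p6.

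The 35 genes and all lists were chosen with earlier results of these data known, so no count over a list was tested. Every gene of the set is named. Values on each array are given for those called with at least a 2-fold difference and for Srebf1, Srebf2, Scap, Insig1 and Insig2, and a few others were added after their values were seen. Of other lists up to 4 genes per comparison are named, by smallest adjusted p. A gene of the marker lists is not reported here and was left out of their sums. The settings varied were the scaling (quantile or median), the background correction (normexp on the median pixel signal, offset 50), the source (the second table), the filter (none, or above background on all arrays), the probes (their mean), an intensity trend, a replicate block, a fit of the 2 groups compared, a 2-fold minimum and the removal of each array. The joint removal of Nr4a-TKO preTreg array 2 and Foxp3-KO preTreg array 1 was chosen after seeing the data. Figures used matplotlib 3.10.9.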

Additional observations from a re-analysis of the deposited data

How the results depend on the processing

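None of the 55 calls reversed its sign under any alternative run, 27 were kept in all 10 alternatives that keep every array, and 11 were kept in those and in every removal of arrays. Left-out arrays moved the number of genes called to between 8 and 18 in Nr4a-TKO preTreg against WT Tconv (17 with all arrays), 0 and 8 in Foxp3-KO preTreg (7), and 1 and 12 in WT Treg (11). Against WT Treg the count ran from 3 to 13 in Nr4a-TKO preTreg (10) and was 0 in each case in Foxp3-KO preTreg (0), and between the precursors it ran from 3 to 10 (10). The lowest counts came without WT Tconv array 1 (8, 0 and 1 against WT Tconv) without Nr4a-TKO preTreg array 1 (3 against WT Treg and 3 against Foxp3-KO preTreg), and without WT Treg array 2 (also 3 against WT Treg). Without Nr4a-TKO preTreg array 2 and Foxp3-KO preTreg array 1 together, 1 gene was called in Foxp3-KO preTreg against WT Tconv. In the removals with the lowest counts the share of all tested genes called was also lower than with all arrays. A group left with 1 array is assumed to vary like the others.

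With a 2-fold minimum the counts were 8, 1 and 2 in Nr4a-TKO preTreg, Foxp3-KO preTreg and WT Treg against WT Tconv, 1 in Nr4a-TKO preTreg against WT Treg and 0 between the precursors. Foxp3-KO preTreg against WT Tconv fell to 3 with no filter on dim probes, 4 with the mean of all probes and 2 when only those 2 groups were fitted. Of all tested genes 10.2%, 23.5% and 9.5% were called in these fits, against 25.1% in the main fit. WT Treg against WT Tconv fell to 6 with no filter, where 16.3% of all tested genes were called (34.7% in the main fit). With only the 2 groups fitted, 0 were called between the precursors, where the share of all tested genes was 6.57% (33.4% in the main fit). Foxp3-KO preTreg against WT Treg gained 1 call under normexp, an intensity trend and the filter for all arrays, where 7.53%, 9.52% and 8.51% of all tested genes were called. Median scaling shifted the median of all genes by -0.15 in WT Treg and -0.14 in Foxp3-KO preTreg against WT Tconv, and that of the 35 genes to -0.17 and -0.13. Its higher and lower calls were 2 and 9 in WT Treg against WT Tconv, 1 and 7 in Foxp3-KO preTreg against WT Tconv, 6 and 4 in Nr4a-TKO preTreg against WT Treg, and 4 and 3 between the precursors. Of all tested genes 42.3%, 37.2%, 32% and 30.6% were called in these comparisons. Under quantile normalization the higher and lower calls of the set were 2 and 3 in Foxp3-KO preTreg and 5 and 5 in WT Treg against WT Tconv, where 21.8% and 31.5% of all tested genes were called. The cause of these changes was not tested.

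With the replicate number as a block, 16, 5 and 9 genes were called in Nr4a-TKO preTreg, Foxp3-KO preTreg and WT Treg against WT Tconv, 8 and 0 in Nr4a-TKO preTreg and Foxp3-KO preTreg against WT Treg, and 10 between the precursors. The shares of all tested genes called were 46.6%, 22.3% and 32.9%, 33.3% and 4.53%, and 30.7% in the same order. The block ended the calls of Abcg1 and Acss2 in WT Treg, Ebp in Nr4a-TKO preTreg and Fdft1 and Fdps in Foxp3-KO preTreg against WT Tconv, of Abca1, Lss and Sc5d in Nr4a-TKO preTreg against WT Treg, and of Hmgcs1 between the precursors. Deviations of same-numbered arrays correlated at r = 0.148 to 0.259 over the 3 pairs among Nr4a-TKO preTreg, Foxp3-KO preTreg and WT Treg, and at -0.028 to -0.01 over the 3 pairs with WT Tconv, so the numbers are not taken to pair all the samples.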
